A study of Homo sapiens with 10 samples.

Results

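Potassium channel subunits were followed in SH-SY5Y, a human neuroblastoma cell line of sympathetic lineage, on Affymetrix exon arrays that gave 1 log2 intensity per gene-level probe set. The members are the 84 genes, of 14232 named genes, whose probe set carries a single symbol beginning with KCN. Of these, 82 encode proteins and 2, KCNQ1DN and KCNJ5-AS1, are non-coding RNAs. A further 5 probe sets with a KCN symbol among several were left out, and 14 protein-coding KCN genes of the RefSeq table are not analysed here. The compared cells were 5 samples carrying SOD1(G93A), a mutant superoxide dismutase found in familial amyotrophic lateral sclerosis, labelled 3, 9, 12, 15 and 18, and 5 samples carrying wild-type SOD1, labelled 2, 8, 11, 14 and 17. Both groups were stably transfected and grown with 400 µg/ml Geneticin, so the wild-type cells also carry a SOD1 construct and its selection. No source at hand states the promoter of the construct, or whether a group is 1 clone or several. Separate cultures for the samples within a group are not stated either, so each p-value reflects the spread among these samples alone, which may be technical.

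Potassium channels let potassium leave the cell down its gradient, which pulls the membrane potential back to rest and sets how readily a neuron fires. A channel is built around a pore made by KCN subunits, and accessory subunits bound to it change its gating and its place in the cell. The families differ in what opens them: voltage for KCNA, KCNB, KCNC, KCND, KCNH and KCNQ, sodium or calcium ions for KCNN, KCNMA and KCNT, and little beyond the resting state for the leak channels of KCNK. In neuroblastoma cells the KCNH2 channel, known as hERG, is known for its part in setting the resting potential.

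The arrays were alike in scale. Array medians lay between 6.26 and 6.34 and the lower quartile of the probe sets between 3.84 and 3.89. Of 8 measured neuroblastoma markers, 7 were above the median of all probe sets (6.29) on every array, and TH was below it. By limma 2 of the 8 were higher in SOD1(G93A) cells, CHGA by 1.06 (SE 0.12) and DDC by 0.28 (SE 0.06), and GATA3 was lower, with a difference of −0.38 (SE 0.07). These were 37.5% of the 8, where 9.6% of all named genes passed the same threshold (adjusted p of 0.05 or less). Of 17 measured markers of immune, endothelial, glial, epithelial, hepatic and fibroblast cells, KRT8 and PDGFRB were above that median on every array. Past the threshold was only the glial marker S100B, higher by 0.73 (SE 0.11). At an unadjusted p under 0.05, 2 of the 17 were higher and 4 lower, and differences were positive in 6 and negative in 11, so a sum over them can hide opposite moves. That summed log2 level was 79.7 to 81.3 in SOD1(G93A) samples and 79.4 to 81.1 in wild-type samples. The part of other cell types in the results below was not tested. SOD1 itself was 9.55 ± 0.09 in SOD1(G93A) samples and 9.78 ± 0.13 in wild-type samples (SD, n = 5 each), which does not tell mutant from wild-type sequence.

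Potassium channel genes changed in both directions: the falls of KCNA3 and KCNK1 were the largest changes, and the rise of KCNJ8 came next. A gene was called at a Benjamini-Hochberg adjusted p of 0.05 or less by limma over all 22011 probe sets, the rate the labels state. The labels add a 2-fold threshold, which was not required for a call here. In SOD1(G93A) cells 7 of the 84 genes rose and 8 fell, or 17.9%, where 9.6% of all named genes were called. By direction, 4.03% of all named genes were called higher and 5.57% lower. Of the 84 genes, 2 fell by at least 1 on the log2 scale (2-fold), KCNA3 and KCNK1, where 1.18% of all named genes were called at that size in either direction. The 5 SOD1(G93A) and the 5 wild-type values did not overlap in 13 of the 84, where 11.4% of all named genes showed no overlap. The count of rises was 3 without SOD1(G93A) sample 9, and 4 without SOD1(G93A) sample 15 or without wild-type sample 14 or 17. The log2 differences themselves moved less when 1 array was left out, with 0.40 to 0.51 in KCND1, 0.40 to 0.52 in KCNJ2, 0.24 to 0.31 in KCNQ5 and 0.21 to 0.27 in KCNIP2.

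The median difference was −0.0095 over the 84 genes and −0.0043 over all named genes. Most KCN probe sets that were dim on the array were not called. Among the 55 genes with a mean above the lower quartile of all probe sets 14 were called (25.5%), where 11.5% of named genes above that quartile were. Of the 29 at or below it, 1 was called (3.45%), against 2.6% of the named genes there. Across the 84 genes the correlation between arrays was 0.981 to 0.994 within groups and 0.956 to 0.974 between them, as a description, since all arrays share these probe sets and their differences in brightness.

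**Figure D1:**
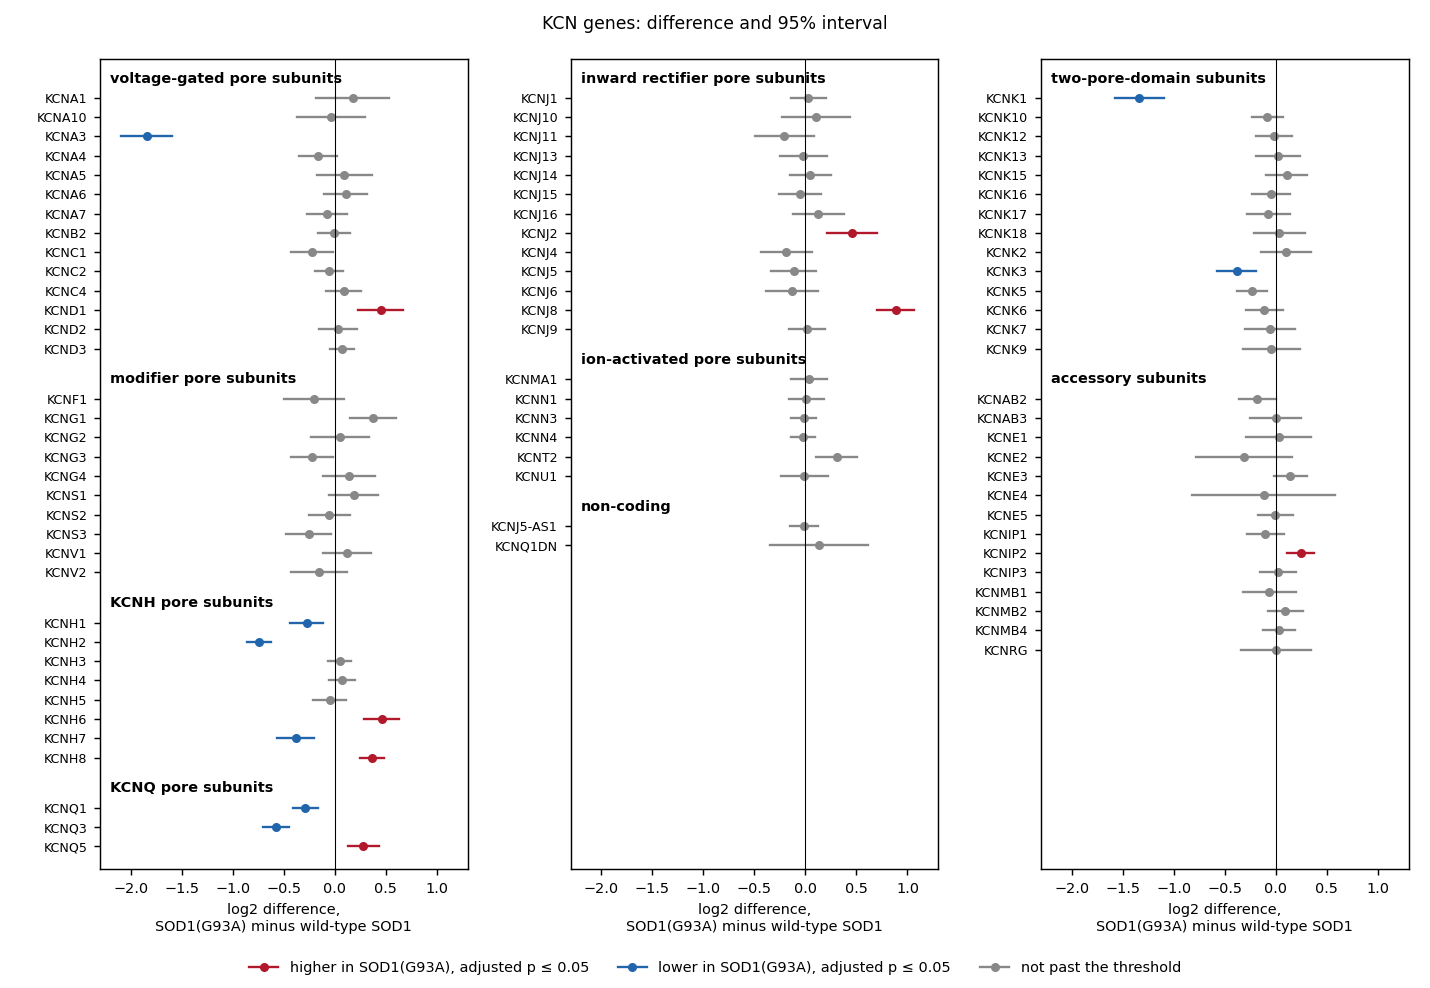
Log2 difference (SOD1(G93A) minus wild-type SOD1) of each of the 84 KCN genes, with its 95% interval from limma, arranged by class of subunit. The 8 genes past the threshold on the left of 0 include KCNA3 at −1.84 and KCNK1 at −1.34, the 7 on the right include KCNJ8 at 0.88, and the 8 KCNH genes lie on both sides.

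The voltage-gated pore subunits KCNA, KCNB, KCNC and KCND held the largest change. Of these 14 genes, 1 rose and 1 fell by limma (14.3%), where 9.6% of all named genes were called. KCNA3, a delayed rectifier best known from T lymphocytes and also found in neurons, had log2 levels of 3.36, 2.92, 3.44, 3.09 and 3.16 in SOD1(G93A) samples, against 5.16, 5.03, 5.07, 5.18 and 4.74 in wild-type samples. All SOD1(G93A) values lay below all wild-type values and were dimmer than the lower quartile. RMA compresses log2 differences at such levels, so the size of the change is uncertain. KCNA3 fell by 1.84 (SE 0.11, adjusted p = 2.24e-06 by limma), to 27.9% of the wild-type level. Of the other 6 measured KCNA genes, limma called 0, which beside 9.6% of all named genes does not set them apart. The unmoderated test also called 0 of these 6, and 0 had an unadjusted p under 0.05. Their differences lay between −0.17 for KCNA4 and 0.17 for KCNA1, both Shaker-type pore subunits of neurons. KCNA10, which is the neighbour of KCNA3 among the named genes of chromosome 1, differed by −0.04 (SE 0.15).

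In the KCND subfamily, whose channels carry the fast inactivating A-type current of neurons, KCND1 rose. It had 5.41, 5.37, 5.08, 5.03 and 5.29 in SOD1(G93A) samples and 5.03, 4.81, 4.62, 4.68 and 4.79 in wild-type samples. Wild-type sample 2 lay just above the lowest SOD1(G93A) sample, so the groups overlapped. The difference was 0.45 (SE 0.10, adjusted p = 0.0193 by limma), and the call was lost without SOD1(G93A) sample 9 or wild-type sample 11 or 14 (adjusted p up to 0.0523), or without samples 17 and 18 together (adjusted p = 0.0895). KCND2 and KCND3 differed by 0.03 and 0.07 and were not called. Among the KCNC genes of fast-spiking neurons the largest difference was −0.22 (SE 0.09) in KCNC1, not past the threshold (adjusted p = 0.217 by limma), and KCNB2 differed by −0.01.

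Accessory subunits of the A-type channels also moved. KCNIP2, a calcium-binding partner of KCND pores, had 5.04, 5.04, 4.96, 5.16 and 4.93 in SOD1(G93A) samples and 4.74, 4.68, 4.85, 4.81 and 4.83 in wild-type samples, without overlap. It rose by 0.24 (SE 0.06, adjusted p = 0.0338 by limma). That call was lost without any 1 of SOD1(G93A) samples 3, 9 and 15 and wild-type samples 2, 8, 14 and 17 (adjusted p up to 0.0843). KCNIP1 and KCNIP3 differed by −0.10 and 0.02 and were not called. The dipeptidyl-peptidase-like proteins DPP6 and DPP10, membrane partners that speed KCND gating, went apart. DPP10 had 3.03, 2.91, 3.09, 2.92 and 2.97 in SOD1(G93A) samples and 5.07, 4.84, 4.83, 5.31 and 4.95 in wild-type samples, and fell by 2.02 (SE 0.09, adjusted p = 2.73e-07 by limma). Its SOD1(G93A) values all lay below the lower quartile, so that the fall is of uncertain size. DPP6 rose by 0.28 (SE 0.07, adjusted p = 0.0411 by limma), a call lost without any 1 of 9 arrays, all but wild-type sample 8 (adjusted p up to 0.0993), without samples 17 and 18 together, and in the unmoderated test.

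The KCNH genes, relatives of the fly ether-à-go-go channel, changed in both directions. Of 8 measured, 3 fell and 2 rose (62.5%), where 9.6% of all named genes were called. The groups did not overlap in 5 of the 8, the same 5 genes, where 11.4% of all named genes showed no overlap. Called genes mostly have groups apart (13 of the 15 called KCN genes), so this adds no separate support. KCNH2, the hERG pore, had 8.17, 8.04, 8.14, 8.04 and 8.05 in SOD1(G93A) samples, against 8.78, 8.78, 8.87, 8.83 and 8.92 in wild-type samples. It fell by 0.75 (SE 0.05, adjusted p = 7.00e-06 by limma), to 59.6% of the wild-type level, with an SD of 0.06 in each group. Its closest relatives, the other erg-type subunits, moved apart: KCNH6 rose and KCNH7 fell. KCNH6 had 6.74, 6.45, 6.42, 6.69 and 6.55 in SOD1(G93A) samples and 6.12, 6.21, 6.03, 5.998 and 6.20 in wild-type samples, a difference of 0.46 (SE 0.08, adjusted p = 0.00382 by limma). KCNH7 averaged 3.58 ± 0.13 in SOD1(G93A) samples and 3.96 ± 0.13 in wild-type samples (SD, n = 5 each), close to the lower quartile, and fell by 0.38 (SE 0.08, adjusted p = 0.0169 by limma).

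Among the other KCNH genes, KCNH8, an elk-type subunit, had 7.26, 7.21, 7.19, 7.17 and 7.38 in SOD1(G93A) samples and 6.86, 6.86, 6.88, 6.86 and 6.92 in wild-type samples. It rose by 0.37 (SE 0.05, adjusted p = 0.00139 by limma), and wild-type samples spread little (SD 0.02). KCNH1, the eag subunit, averaged 6.82 ± 0.11 in SOD1(G93A) samples and 7.10 ± 0.11 in wild-type samples (SD, n = 5 each) and fell by 0.28 (SE 0.07, adjusted p = 0.0432 by limma). The KCNH1 call was lost without any 1 of 8 arrays, all but SOD1(G93A) sample 12 and wild-type sample 8 (adjusted p up to 0.106), without samples 17 and 18 together, and in the unmoderated test. KCNH3, KCNH4 and KCNH5 differed by 0.05, 0.07 and −0.05 and were not called, with 95% intervals within 0.5 of 0.

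All 3 measured KCNQ genes were called, where 9.6% of all named genes were. These channels open slowly with voltage, and those of neurons carry the M-current that holds back repeated firing. KCNQ3, an M-channel subunit, had 4.28, 4.24, 4.33, 4.23 and 4.23 in SOD1(G93A) samples and 4.89, 4.77, 4.76, 4.99 and 4.80 in wild-type samples. The groups lay well apart, and KCNQ3 fell by 0.58 (SE 0.06, adjusted p = 0.000109 by limma), to 67.0% of the wild-type level. KCNQ1, known from heart and epithelia, had 6.46, 6.31, 6.46, 6.48 and 6.38 in SOD1(G93A) samples and 6.69, 6.68, 6.70, 6.65 and 6.82 in wild-type samples. It fell by 0.29 (SE 0.06, adjusted p = 0.00913 by limma). KCNQ5, another M-type subunit, went the other way, with 5.34, 5.45, 5.50, 5.40 and 5.47 in SOD1(G93A) samples and 5.10, 5.14, 5.29, 5.26 and 4.98 in wild-type samples. It rose by 0.28 (SE 0.07, adjusted p = 0.0304 by limma), a call lost without any 1 of SOD1(G93A) samples 9, 12, 15 and 18 and wild-type samples 2, 8 and 17 (adjusted p up to 0.0744), or without samples 17 and 18 together (adjusted p = 0.112). KCNQ1DN, a non-coding gene next to KCNQ1, differed by 0.13 (SE 0.22).

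**Figure D2:**
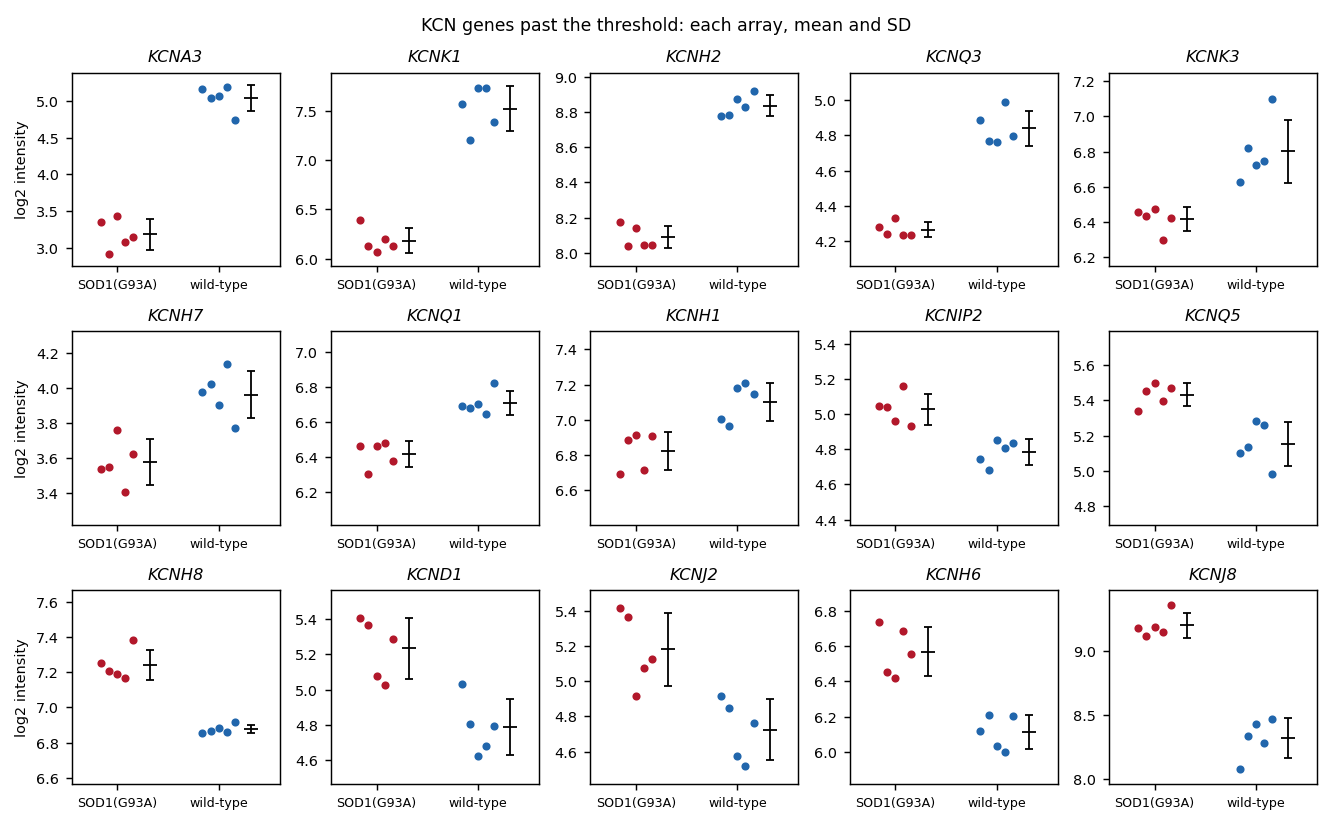
Log2 intensity of the 15 called KCN genes in each array, SOD1(G93A) samples in red and wild-type samples in blue, with the mean and SD of each group in black; each panel has its own vertical scale, which does not start at 0. The panels run from the largest fall (KCNA3) to the largest rise (KCNJ8), and the groups overlap only in KCND1 and KCNJ2.

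Among the inward rectifiers, the KCNJ genes, 2 of 13 rose and 0 fell by limma (1 and 0 by the unmoderated test, and 2 and 0 at an unadjusted p under 0.05). By limma 15.4% of the 13 were called, where 9.6% of all named genes were. KCNJ8, a pore subunit of ATP-sensitive channels known from vascular muscle, had 9.18, 9.12, 9.19, 9.15 and 9.36 in SOD1(G93A) samples, against 8.08, 8.33, 8.43, 8.28 and 8.47 in wild-type samples. It rose by 0.88 (SE 0.08, adjusted p = 5.32e-05 by limma), a ratio of 1.85 over the wild-type level. The sulfonylurea receptor ABCC9, which assembles with KCNJ8 and lies next to it among the named genes of chromosome 12, had 4.23, 4.61, 4.50, 4.58 and 4.52 in SOD1(G93A) samples and 2.90, 2.89, 2.90, 2.68 and 3.08 in wild-type samples. ABCC9 rose by 1.60 (SE 0.09, adjusted p = 1.27e-06 by limma); its wild-type values all lay below the lower quartile, so the size is uncertain. KCNJ11, the other pore subunit of ATP-sensitive channels, differed by −0.20 (SE 0.13) and was not called (adjusted p = 0.471 by limma).

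KCNJ2, a strong inward rectifier, had 5.42, 5.36, 4.92, 5.08 and 5.13 in SOD1(G93A) samples and 4.92, 4.85, 4.57, 4.52 and 4.76 in wild-type samples. SOD1(G93A) sample 12 and wild-type sample 2 had the same value to 2 decimals, so the groups touched. The rise was 0.46 (SE 0.11, adjusted p = 0.0330 by limma), lost without any 1 of SOD1(G93A) samples 3, 9, 15 and 18 and wild-type samples 11, 14 and 17 (adjusted p up to 0.0826), or without samples 17 and 18 together (adjusted p = 0.0987). The other 11 KCNJ genes, among them KCNJ5, KCNJ6 and KCNJ9 of the G-protein-gated channels, differed by −0.20 to 0.13, and 7 of the 13 were below the lower quartile in both groups.

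Of the 14 two-pore-domain genes, whose channels leak potassium at rest, 2 fell and 0 rose by limma and by the unmoderated test, and 3 and 0 did at an unadjusted p under 0.05. By limma 14.3% of the 14 were called, where 9.6% of all named genes were. KCNK1, a weakly conducting leak subunit, had 6.39, 6.13, 6.07, 6.19 and 6.13 in SOD1(G93A) samples, against 7.56, 7.20, 7.73, 7.73 and 7.38 in wild-type samples. It fell by 1.34 (SE 0.11, adjusted p = 2.08e-05 by limma), to 39.6% of the wild-type level, and its groups lay far apart. KCNK3, an acid-sensitive leak subunit, had 6.46, 6.43, 6.48, 6.30 and 6.43 in SOD1(G93A) samples and 6.63, 6.82, 6.72, 6.75 and 7.10 in wild-type samples. It fell by 0.38 (SE 0.08, adjusted p = 0.0183 by limma), and the adjusted p was 0.0518 without SOD1(G93A) sample 15. KCNK5, a leak subunit opened by alkaline pH, averaged 5.29 ± 0.11 in SOD1(G93A) samples and 5.52 ± 0.08 in wild-type samples (SD, n = 5 each), a difference of −0.23 that missed the threshold (adjusted p = 0.0701 by limma) and passed it without SOD1(G93A) sample 12 (adjusted p = 0.0478).

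RefSeq sequence around the gene starts allows the promoters of the 4 largest called changes to be set side by side: KCNA3, KCNK1 and KCNH2, which fell, and KCNJ8, which rose. Shown are the 250 bases before each start on build GRCh38.p14, 5′ to 3′ on the strand of the gene, KCNA3 at chr1:110671776-110672025 (minus strand), KCNK1 at chr1:233613856-233614105 (plus strand), KCNH2 at chr7:150978322-150978571 (minus strand) and KCNJ8 at chr12:21774707-21774956 (minus strand). Capitals mark matches, on either strand, to any of 6 motifs: GGGCGG (the GC box), CCAAT (the CCAAT box), TATAAA (the TATA box), TGACGTCA (the cyclic AMP response element), and, from the left and the right part of the site of the repressor REST, TCAGCACC and GGACAGCG.
KCNA3: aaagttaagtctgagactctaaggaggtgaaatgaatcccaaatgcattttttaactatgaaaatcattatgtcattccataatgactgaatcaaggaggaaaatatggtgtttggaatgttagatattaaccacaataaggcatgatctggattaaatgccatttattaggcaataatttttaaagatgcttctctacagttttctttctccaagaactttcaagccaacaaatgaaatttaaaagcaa
KCNK1: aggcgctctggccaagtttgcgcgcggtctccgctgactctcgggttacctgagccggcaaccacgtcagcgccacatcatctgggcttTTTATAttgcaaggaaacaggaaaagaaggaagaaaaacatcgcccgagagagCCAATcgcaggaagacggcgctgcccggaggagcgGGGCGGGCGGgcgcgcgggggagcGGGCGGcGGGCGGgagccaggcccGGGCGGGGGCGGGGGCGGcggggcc
KCNH2: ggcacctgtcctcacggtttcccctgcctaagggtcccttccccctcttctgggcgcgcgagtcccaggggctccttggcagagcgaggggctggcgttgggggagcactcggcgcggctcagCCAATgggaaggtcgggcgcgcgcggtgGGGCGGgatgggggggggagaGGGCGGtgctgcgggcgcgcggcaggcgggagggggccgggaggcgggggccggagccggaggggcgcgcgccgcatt
KCNJ8: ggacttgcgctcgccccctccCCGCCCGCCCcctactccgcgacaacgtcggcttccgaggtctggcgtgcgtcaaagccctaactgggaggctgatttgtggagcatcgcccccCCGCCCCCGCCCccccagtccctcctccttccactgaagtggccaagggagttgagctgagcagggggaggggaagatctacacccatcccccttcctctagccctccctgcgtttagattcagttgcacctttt

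The 4 windows differed in base composition. KCNA3 had a GC content of 30.8% and no match to the 6 motifs, KCNK1 69.2%, KCNH2 77.2% and KCNJ8 64.8%. KCNK1 held 7 matches to the GC box, with 1 CCAAT and 1 TATAAA match. KCNH2 held 2 GC boxes and 1 CCAAT, and KCNJ8 held 4 GC boxes, all on the other strand. Neighbouring GC boxes overlap in KCNK1 and KCNJ8. Over 27305 such windows of the same length, 42.3% held GGGCGG, 33% CCAAT, 11.1% TATAAA, 1.77% TGACGTCA, 1.34% TCAGCACC and 1.31% GGACAGCG. Windows were at hand for 65 of the 84 KCN genes. Of these, 60% held GGGCGG, 27.7% CCAAT, 9.23% TATAAA and 1.54% TGACGTCA. TCAGCACC and GGACAGCG were each held by 4.62% (3 genes). The 7 genes that rose all held GGGCGG, as did 4 of the 5 that fell and had a window. CCAAT was in 4 of these 7 and 2 of these 5, TATAAA in 0 and 1, and TCAGCACC in 1 and 1. TGACGTCA and GGACAGCG were in 0 and 0. These matches describe letters only. The sequence source gave 1 start per gene here, and whether it is the start used in these cells was not tested. A window, such as that of KCNA3, may therefore lie away from the promoter in use.

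The modifier subunits KCNF, KCNG, KCNS and KCNV do not conduct alone and tune KCNB channels. None of these 10 was called by limma or by the unmoderated test, and 3 had an unadjusted p under 0.05. Over all named genes 9.6% were called by limma. The largest difference was in KCNG1, with 6.31, 6.29, 6.01, 6.24 and 6.39 in SOD1(G93A) samples and 5.65, 6.11, 5.89, 5.70 and 6.003 in wild-type samples. Its groups overlapped through wild-type sample 8, and the difference of 0.37 (SE 0.10) had an adjusted p of 0.0539 by limma, which was 0.0278 at its lowest when single arrays were left out. Ion-activated channels were called by neither limma nor the unmoderated test, with 1 of 6 at an unadjusted p under 0.05. That was the sodium-activated KCNT2, at 6.58 ± 0.17 in SOD1(G93A) samples and 6.28 ± 0.12 in wild-type samples (SD, n = 5 each), a difference of 0.31 (SE 0.09, adjusted p = 0.0754 by limma). KCNMA1, the pore of the large calcium-activated channel, differed by 0.03 (95% interval −0.14 to 0.21), and its neuronal partner KCNMB4 by 0.03 (95% interval −0.13 to 0.19). KCNN1, KCNN3 and KCNN4 of the smaller calcium-activated channels differed by 0.01, −0.02 and −0.02.

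Of the 14 accessory KCN genes 1 was called (7.14%), KCNIP2 (above), where 9.6% of all named genes were called. The cytoplasmic beta subunits KCNAB2 and KCNAB3 of KCNA channels differed by −0.18 (SE 0.08) and 0.00. Among the KCNE genes, single-span partners of KCNQ and KCNH pores, KCNE4 had the widest 95% interval of the 84 (−0.82 to 0.58), and that of KCNE2 ran from −0.79 to 0.15. The tetramerization regulator KCNRG differed by 0.00 (95% interval −0.34 to 0.35). Over all 69 KCN genes that were not called, the 95% interval lay within 0.5 of 0 in 63 and within 1 of 0 in all 69.

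**Figure D3:**
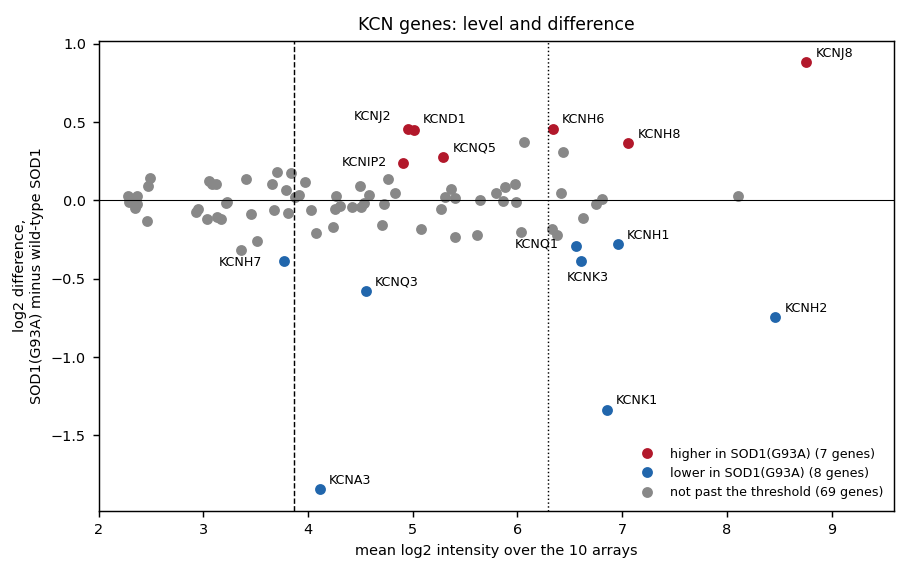
Mean log2 intensity over the 10 arrays (horizontal) against the log2 difference, SOD1(G93A) minus wild-type SOD1 (vertical), for the 84 KCN genes, with the lower quartile (3.87, dashed) and the median (6.29, dotted) of all probe sets. Left of the dashed line KCNH7 is the 1 called gene of 29, and the remaining 14 called genes lie to its right.

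Genes that anchor potassium channels at axons and synapses changed in both directions. Of 15 clustering and scaffolding genes, 4 rose and 3 fell (46.7%), where 9.6% of all named genes were called. Their median difference was −0.12, beside −0.0043 over all named genes. DLG2, a scaffold that binds KCNA and KCNJ channels, had 7.90, 7.96, 7.82, 7.64 and 7.85 in SOD1(G93A) samples and 6.40, 6.86, 6.71, 6.65 and 6.96 in wild-type samples, and rose by 1.12 (SE 0.10, adjusted p = 5.52e-05 by limma). CNTN1 and CNTNAP1, the axonal pair of the paranodal junction that separates potassium from sodium channels, rose by 0.49 (SE 0.08) and 0.43 (SE 0.07), and the ankyrin ANK2 rose by 0.45 (SE 0.07). DLG3, another synaptic scaffold, fell by 0.41 (SE 0.06) and LGI1, a secreted partner of ADAM22 and KCNA complexes, by 0.36 (SE 0.08), with all 10 values below the lower quartile. The LGI1 call was lost without any 1 of SOD1(G93A) samples 3 and 15 and wild-type samples 2 and 8 (adjusted p up to 0.0520), or without samples 17 and 18 together (adjusted p = 0.103).

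Of the 6 measured accessory proteins not named KCN, 2 rose and 1 fell by limma (ABCC9, DPP6 and DPP10, above). By the unmoderated test 1 rose and 1 fell, and the median difference was −0.02. Potassium pumps and cation-chloride cotransporters showed 3 falls and 0 rises among 7 measured by limma, by the unmoderated test and at an unadjusted p under 0.05, with a median difference of −0.06. By limma 50% of the first list and 42.9% of the second were called, where 9.6% of all named genes were. The median over all named genes was −0.0043. ATP1B2, a beta subunit of the sodium-potassium pump, had 5.52, 5.45, 5.41, 5.57 and 5.51 in SOD1(G93A) samples and 6.45, 6.34, 6.24, 6.25 and 6.59 in wild-type samples, and fell by 0.89 (SE 0.07, adjusted p = 2.45e-05 by limma). A second beta subunit, ATP1B1, fell by 0.37 (SE 0.07) and the potassium-chloride cotransporter SLC12A7 by 0.33 (SE 0.07). No gene of an alpha subunit of the pump is analysed here.

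Among 12 measured regulators of potassium channels 1 rose and 2 fell (25%), where 9.6% of all named genes were called. Their median difference was 0.04, beside −0.0043 over all named genes. GNG2, a G-protein gamma subunit of the kind that opens G-protein-gated KCNJ channels, had 10.57, 10.44, 10.44, 10.50 and 10.44 in SOD1(G93A) samples and 9.43, 9.62, 9.51, 9.38 and 9.79 in wild-type samples, and rose by 0.93 (SE 0.08, adjusted p = 2.82e-05 by limma). REST, a repressor of neuronal genes that include ion channels, had 6.75, 6.80, 6.91, 6.96 and 7.09 in SOD1(G93A) samples and 7.57, 7.43, 7.62, 7.51 and 7.37 in wild-type samples. REST fell by 0.60 (SE 0.08, adjusted p = 0.000589 by limma), without overlap. GNG4 fell by 0.20 (SE 0.05, adjusted p = 0.0394 by limma), a call lost without any 1 of 9 arrays, all but wild-type sample 2 (adjusted p up to 0.0940), and without samples 17 and 18 together.

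**Figure D4:**
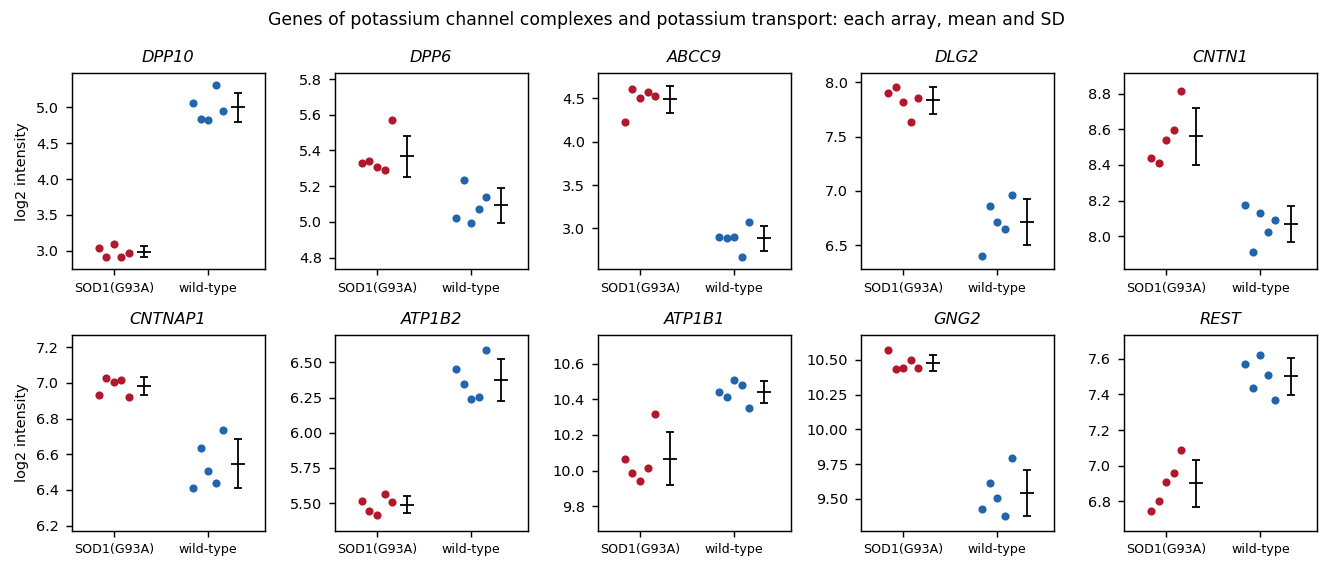
Log2 intensity in each array of 10 called genes from potassium channel complexes, pumps and regulators, SOD1(G93A) samples in red and wild-type samples in blue, with the mean and SD of each group in black; each panel has its own vertical scale, which does not start at 0. DPP10, ATP1B2, ATP1B1 and REST are lower and ABCC9, DPP6, DLG2, CNTN1, CNTNAP1 and GNG2 higher in SOD1(G93A) samples. The groups overlap in none of these 10, which were picked from the called genes. Over all named genes 11.4% showed no overlap. Among called genes not shown, the groups of LGI1 overlap.

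On the short arm of chromosome 2, 5 KCN genes lie in the stretch from SH3YL1 to ACYP2. The stretch was taken up because an earlier look at these data found it lower, so its counts are a description and no test. Of the other 196 named genes there, 100 fell and 2 rose, with a median difference of −0.38. Over all named genes 5.57% were called lower and 4.03% higher, with a median of −0.0043. All 5 KCN genes had a negative difference, and 1 of them, KCNK3, fell. KCNF1 differed by −0.20 (SE 0.13), KCNS3 by −0.26 (SE 0.10), KCNG3 by −0.22 (SE 0.09) and KCNK12 by −0.02 (SE 0.08). Of the 6 named genes nearest to KCNK3, 3 fell and 0 rose by limma, by the unmoderated test and at an unadjusted p under 0.05, with a median of −0.40; of those nearest to KCNK12, 5 fell, with a median of −0.43. Without these 5 genes, 7 of 79 KCN genes rose and 7 fell.

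**Figure D5:**
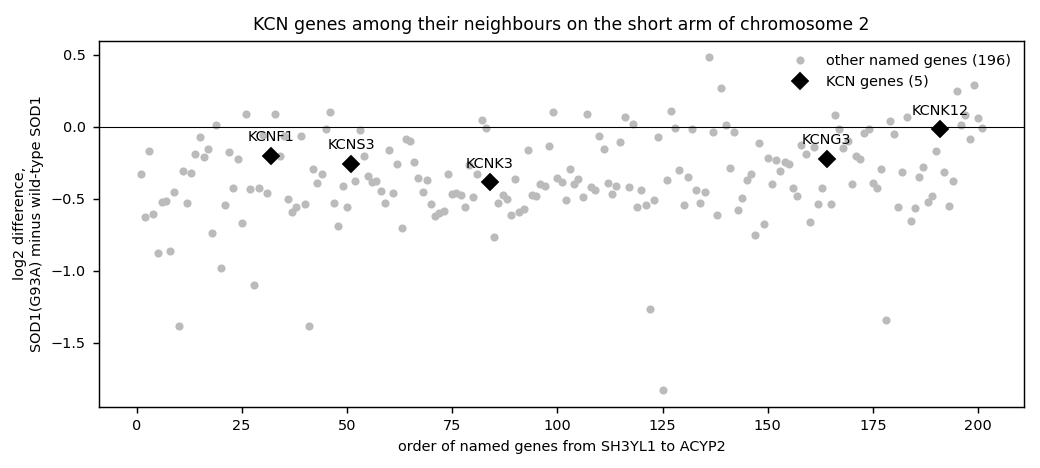
Log2 difference, SOD1(G93A) minus wild-type SOD1, of 201 named genes in their order from SH3YL1 to ACYP2, with the 5 KCN genes as black diamonds and the 196 other genes in grey. The stretch was taken up because an earlier look at these data found it lower. Most points lie below 0, and the KCN genes lie between −0.38 (KCNK3) and −0.02 (KCNK12).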

How the data were processed

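Gene-level RNA was measured on 10 exon arrays, 5 SOD1(G93A) and 5 wild-type SOD1 samples of SH-SY5Y cells, 1 array each. The deposited values are log2 intensities of 22011 probe sets, made by the authors with RMA (background correction, quantile normalization and summarisation of probes) according to the submitters' processing notes, and in oneChannelGUI 1.6.5 per the labels, so a shift of all genes together cannot be seen and differences of dim probe sets are compressed. The table holds no detection calls. Its genome build and filters: not given in the sources used here. Precision is limited by how many arrays there are.

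Names come from the annotation of the platform, which gave 1 symbol to 14432 probe sets, several to 2408 and none to 5171, and only the first kind was named, with the brightest probe set per gene. All 84 KCN symbols equalled the current symbol of their gene identifier in the RefSeq table of assembly GRCh38.p14. Each KCN gene had a single probe set. The test was the 2-sided moderated test of limma 3.58.1 (R 4.3.3; lmFit, then eBayes) with group as the only term, adjusted by Benjamini-Hochberg over all probe sets, and it was tested on simulated data. The difference given is SOD1(G93A) minus wild-type, and its SE is the moderated one. "The unmoderated test" is the same linear model without eBayes.

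The KCN genes, the gene lists and the tests were chosen with earlier results of these data known, so no test of a list is given. Lists are described by counts and medians. Named are the 4 KCN genes KCNA3, KCNK1, KCNH2 and KCNQ3, every called KCN gene, the largest difference of each subfamily, the 3 uncalled genes with the lowest adjusted p, KCN genes from SH3YL1 to ACYP2, up to 6 called genes per list, and SOD1. Other genes named were chosen after their values were seen. Alternatives were other scalings, filters on dim probe sets, variance models, array weights, probe set choices and adjustments, samples left out and, added after the data were seen, a block of consecutive sample numbers. Promoter sequences are from RefSeq, build GRCh38.p14.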

Additional observations from a re-analysis of the deposited data

Results flagged for a closer look

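In 49 named genes the 5 values of each group were examined for an array whose gap to the next value took up more than 0.71 of the group's range. Chance gives this in about 1 in 20 groups, and 4 of 98 groups showed it. KCNK3 was 6.30 in SOD1(G93A) sample 15, below 6.43 to 6.48 in the other SOD1(G93A) samples. KCNK12 was 6.45 in SOD1(G93A) sample 9, where the others lay between 6.76 and 6.88. ABCC9 was 4.23 in SOD1(G93A) sample 3, against 4.50 to 4.61 in the others. DPP6 was 5.57 in SOD1(G93A) sample 18, above 5.29 to 5.34 in the others.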

How the results depend on the processing

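The groups share no sample number, and the labels pair no samples, but the numbers run in couples (3 and 2, 9 and 8, 12 and 11, 15 and 14, 18 and 17). With these couples as a replicate block, added after the data were seen, 5 KCN genes were called higher and 4 lower, where 7 and 8 were without it. Deviations from the group means over all probe sets correlated by −0.0343 to 0.1419 within couples. Samples 9 and 8 each correlated best with the other. Wild-type sample 11 correlated best with sample 12, but sample 12 did so with wild-type sample 17. The couples were not treated as pairs, but low correlations over all probe sets cannot exclude a pairing. Of the 15 called KCN genes, KCNA3, KCNK1, KCNH2, KCNQ3, KCNJ8, KCNH6 and KCNH8 kept direction and call under every alternative in which they were fitted. KCNQ1 and KCNH7 lost the call only with the block (adjusted p = 0.0565 and 0.0881 by limma). The block also took the calls of KCNH1, KCNIP2, KCNK3 and KCNQ5, and of DPP6, LGI1, ATP1B1 and GNG4, while KCND1 and KCNJ2 kept theirs. The other 6 (KCND1, KCNH1, KCNIP2, KCNJ2, KCNK3 and KCNQ5) kept their direction and lost the call when some single arrays were left out; KCNH1 and KCNJ2 lost it in the unmoderated test too. Leaving out 1 array gave 3 to 8 KCN genes called higher, 6 to 9 called lower, 2 at 2-fold or more in every case, and medians from −0.0248 to 0.0001. Without wild-type sample 17 and SOD1(G93A) sample 18 together, 4 were called higher. With only probe sets above the median fitted, which leaves 16 KCN genes and drops KCNA3, 4 were called higher, 5 lower and 1 at 2-fold or more, with a median of −0.0661. The share of all named genes called is not given for this filter, the block or the other alternatives. Their counts therefore cannot show an excess among KCN genes. Of 18 uncalled named KCN genes, 3 (KCNG1, KCNT2 and KCNK5) were called under some alternative, and 6 changed sign under some. Those were near 0: leaving out 1 array gave −0.0608 to 0.0178 in KCNB2, −0.0163 to 0.0742 in KCNMA1, −0.0435 to 0.0024 in KCNN4, −0.0967 to 0.1508 in KCNRG, −0.0707 to 0.0709 in KCNU1 and −0.0551 to 0.0521 in KCNK12. KCNRG was −0.0036 with centred arrays and −0.0043 with quantile normalization once more, KCNU1 0.0042 with the second of these, and KCNN4 0.0275 without samples 17 and 18. The cause was not tested. Averaging probe sets or taking the dimmest changed no KCN value, since each gene had 1. Signal over background could not be assessed, since the table holds no detection calls. Of the 84 genes, 27 were dimmer than the lower quartile in both groups.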

Other observations

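The genes that flank the 15 called KCN genes gave a mixed picture. Of 90 named genes within 3 places of one of them, 6 were called higher and 9 lower by limma. Over all named genes 4.03% were called higher and 5.57% lower. Of the 9 lower genes, 3 lie around KCNK3 in the stretch on chromosome 2. The 90 include the KCN genes KCNA10, KCNQ1DN and KCNJ16, which were not called. Around KCNJ8, ABCC9 (1.60) and CMAS (0.41) were called higher with it. Around KCNJ2, 2 of the 6 neighbours were called higher, one of them the somatostatin receptor gene SSTR2 (0.64). Around KCNA3, the monocarboxylate carrier SLC16A4, a named gene 3 places away, rose by 1.59 while KCNA3 fell. CMAS, SSTR2 and SLC16A4 were chosen after their values were seen.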
